A study of Homo sapiens with 24 samples.

Results

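The transcripts of 6 secreted factors of stressed cells were followed through asparagine withdrawal in PC9, an established line of human non-small cell lung cancer: adrenomedullin 2 (ADM2), adrenomedullin (ADM), stanniocalcin 1 (STC1), stanniocalcin 2 (STC2), growth differentiation factor 15 (GDF15) and vascular endothelial growth factor A (VEGFA). They were taken by gene symbol, and all 6 were found among the 37411 genes of the count table. All 6 also passed the filter on low counts, as 6 of 17409 genes tested. The cells were plated, grown for 2 days, rinsed, and given RPMI 1640 with or without asparagine, carrying either 200 nM ISRIB or 0.004% DMSO as vehicle, at 6 h or 24 h before a shared endpoint. Medium, drug and time gave 8 groups of 3 biological replicates: with asparagine and vehicle, with asparagine and ISRIB, without asparagine and vehicle, and without asparagine and ISRIB, each at 6 h and at 24 h. All 24 libraries came from this 1 line, so replicates measure the spread between its cultures, and RNA was measured, not the secreted proteins.

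Cells that run short of an amino acid accumulate uncharged transfer RNA, which activates the kinase GCN2. GCN2 phosphorylates the translation initiation factor eIF2, which then inhibits its exchange factor eIF2B, so that general translation falls while the transcription factor ATF4 is made in larger amounts. This integrated stress response is blunted by ISRIB, a small molecule that holds eIF2B in its active form. ADM and ADM2 are peptide hormones that widen blood vessels and act through the receptor CALCRL paired with a RAMP subunit. STC1 and STC2 are glycoprotein hormones related to the calcium-regulating stanniocalcin of fish, and STC2 inhibits the protease PAPPA. GDF15 is a distant member of the TGF-beta family that acts through GFRAL and RET in the hindbrain and lowers food intake. VEGFA drives the growth of blood vessels through FLT1 and KDR, with NRP1 and NRP2 as co-receptors. ADM and VEGFA are textbook targets of the hypoxia-inducible factors, VEGFA and STC2 have also been tied to ATF4, and GDF15 to both p53 and the integrated stress response.

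Promoter windows, the 250 bases before a transcript start in a RefSeq table on GRCh38.p14, were matched for 4 of the 6 genes: ADM2, STC2, GDF15 and ADM. They were searched on both strands for TGATGNAAT, an element bound by pairs of C/EBP and ATF proteins such as ATF4, and for ACGTG and GCGTG, the core letters of a hypoxia response element. TGATGNAAT was in none of the 4 windows and in 0.89% of 35116 windows of the same length. ACGTG was in none of the 4 and in 18.51% of all windows, and GCGTG was in 3 of the 4 and in 32.22% of all windows. The ADM2 window (chr22:50481293-50481542, plus strand) is printed whole because ADM2 had the largest response, and 30 bases are printed for STC2 (chr5:173328626-173328655, minus strand) and ADM (chr11:10304960-10304989, plus strand) because their windows lie in exons annotated to longer transcripts. Capitals mark GCGTG, or CACGC where it lies on the opposite strand, and the pair of CACGC in STC2 share a base. A match or its absence in these letters is a description of the window.
ADM2: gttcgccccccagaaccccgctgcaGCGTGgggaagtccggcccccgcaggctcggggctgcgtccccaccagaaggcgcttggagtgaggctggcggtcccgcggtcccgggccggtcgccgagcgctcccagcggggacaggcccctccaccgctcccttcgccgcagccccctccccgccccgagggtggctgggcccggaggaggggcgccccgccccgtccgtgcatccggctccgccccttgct
STC2: catacaCACGCACGCaaacGCGTGgccgcc
ADM: gagcaggagcgcGCGTGgctgaggaaagaa

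ADM2 lies on the plus strand of chromosome 22 (50481556 to 50486440, GRCh38, GENCODE release 29), ADM on the plus strand of chromosome 11 (10304680 to 10307397) and STC1 on the minus strand of chromosome 8 (23841915 to 23854807). STC2 lies on the minus strand of chromosome 5 (173314713 to 173329503), GDF15 on the plus strand of chromosome 19 (18374731 to 18389176) and VEGFA on the plus strand of chromosome 6 (43770184 to 43786487). All are protein-coding, and values are reads over all exons of a gene, not over a single isoform. VEGFA shares exon sequence with the antisense gene AL136131.3, and the strand setting of the counting is not given in the sources used here, so reads of these 2 genes cannot be told apart. The microRNA gene MIR3189 lies within GDF15 without touching its exons.

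The libraries held 16737384 to 27495861 gene-assigned reads. Levels are CPM, the counts as a rate of each library's total after scaling with TMM factors, and errors are SDs of 3 libraries. The slope of the log2 counts on transcript GC content ran from -0.36 to 0.21 per 10 points of GC. It was steepest below 0 in 3 ISRIB libraries: replicate 3 with asparagine at 24 h (-0.36), and, at 6 h, replicate 3 without asparagine (-0.35) and replicate 1 with it (-0.19). ADM2 and GDF15 have the most GC-rich transcripts of the 6 (63.1% and 62.9%). Epithelial markers were high (KRT8 at a median of 4150 CPM), whereas NKX2-1, SFTPB, SFTPC and SCGB1A1, the markers of alveolar and club lung cells, were near 0. Summed per library, markers of leukocytes were at 0.777 to 2.41 CPM, of fibroblasts at 3.73 to 13.2 CPM and of endothelium at 3.96 to 57.5 CPM, the last chiefly from CDH5.

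Per length of annotated exon, STC2 was the most abundant of the 6 over the 24 libraries, with a median of 43.9 RPKM. RPKM is the CPM per kilobase of all exons annotated to the gene, not of 1 transcript. ADM followed at a median of 9.68 RPKM, VEGFA at 4.5, GDF15 at 3.83, STC1 at 0.759 and ADM2 at 0.208. The exon length was 14431 bases for VEGFA and 2718 for ADM, and in CPM VEGFA (median 65) was above ADM (26.3). Precision followed abundance in part. ADM2 had 7 to 263 reads per library and STC1 15 to 147, against 1663 to 24530 for STC2, so a difference in ADM2 outside its highest group rests on few reads. The coefficient of variation within a group had a median of 9.96% for VEGFA and 11.3% for STC2. It was 43.8% for GDF15, the most variable of the 6, whose lowest library was replicate 3 in 7 of the 8 groups.

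**Figure D1:**
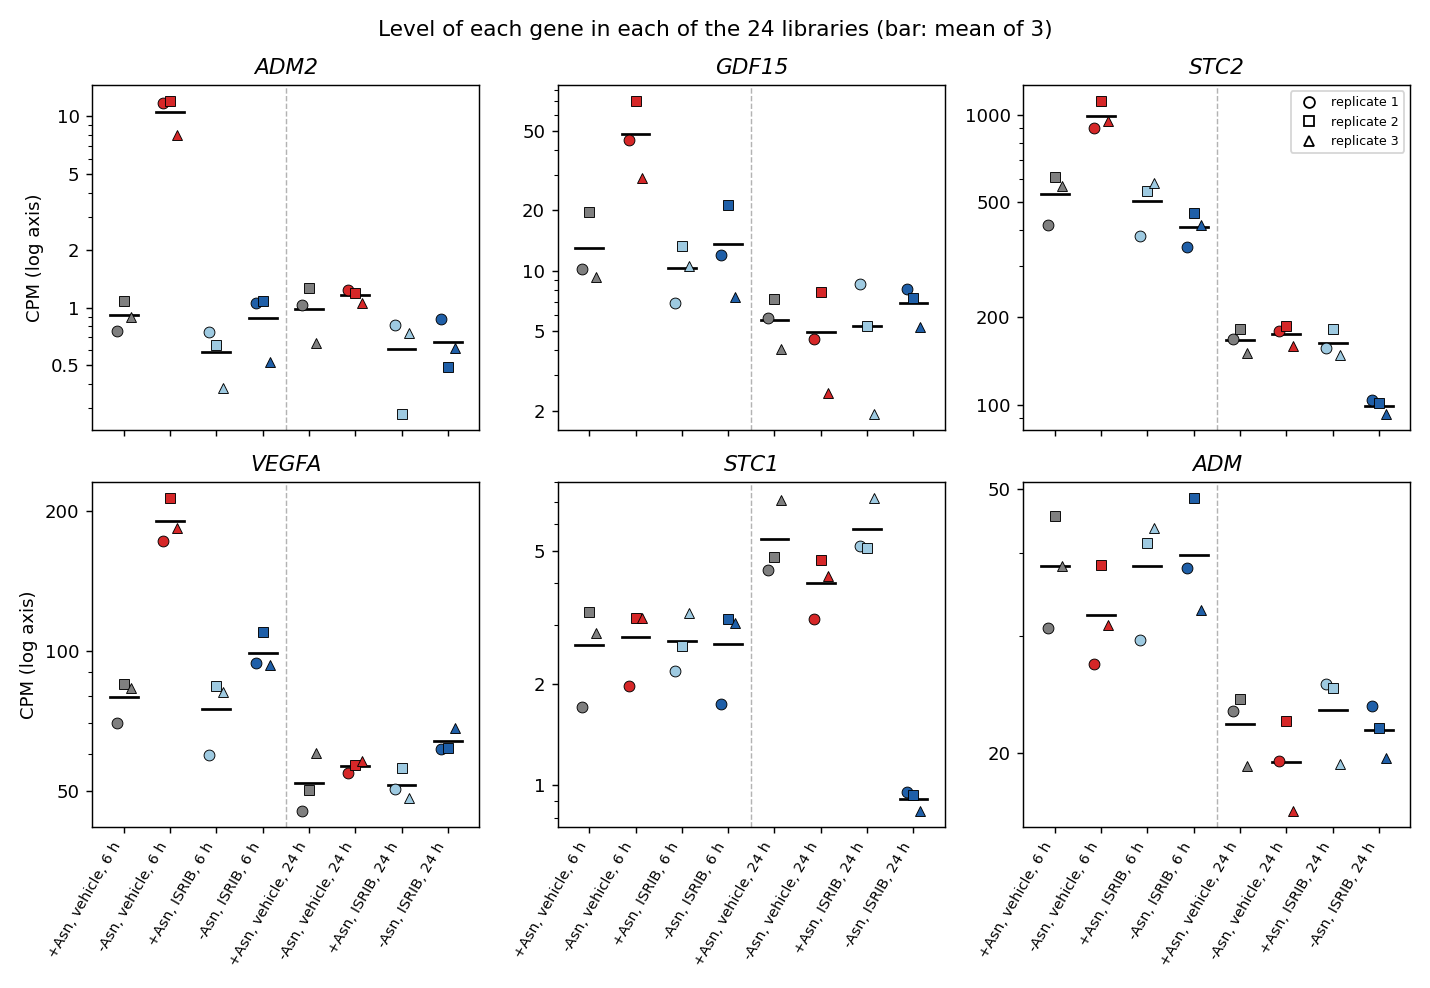
CPM (log axis) of each gene in each library, by group, with symbols for the replicate and a bar at the mean of 3; the dashed line parts 6 h from 24 h. ADM2, GDF15, STC2 and VEGFA were highest in the vehicle libraries without asparagine at 6 h, and STC1 was lowest in the ISRIB libraries without asparagine at 24 h.

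Withdrawal of asparagine for 6 h with vehicle asked what the loss of the amino acid does when the stress response can run. ADM2, GDF15, VEGFA and STC2 rose, and ADM and STC1 did not pass the test. A gene was called at an adjusted p below 0.05 in edgeR's quasi-likelihood test with Benjamini-Hochberg adjustment over all 17409 genes. Thus 4 of the 6 rose, beside 3.31% of all genes tested, and 0 of the 6 fell, beside 1.26%. In bulk libraries, more cells expressing a gene and more RNA per cell cannot be told apart.

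ADM2 was at 0.756, 1.09 and 0.897 CPM in the 3 libraries with asparagine and at 11.7, 12.1 and 7.96 CPM in those without. The groups were far apart, with means differing 11.6-fold. Its log2 change of 3.52 ± 0.29 (SE; edgeR adjusted p = 7.9e-08) ranked 4 from the highest among the 17409 genes. GDF15 was at 10.2, 19.6 and 9.27 CPM with asparagine and at 44.7, 70.7 and 29 CPM without. Replicate 2 was the highest and replicate 3 the lowest in both media, and the ranges did not overlap. The change of GDF15 was 1.89 ± 0.45 on the log2 scale (edgeR adjusted p = 0.013). This call was lost without replicate 1 (edgeR adjusted p = 0.09) or replicate 3 (0.082) with asparagine, or without replicate 2 without asparagine (0.099). Over these and the other left-out libraries the change of GDF15 stayed between 1.5 and 2.3. The fits that left out a library did not pair libraries by replicate number. All 11 alternatives other than leaving out a library called GDF15 here, the replicate block among them.

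VEGFA was at 69.9, 85.1 and 83.4 CPM with asparagine and at 173, 214 and 184 CPM without. Every library without asparagine was above every library with it, and the means differed 2.39-fold. The log2 change of VEGFA was 1.26 ± 0.13 (edgeR adjusted p = 9.6e-07). STC2, the most abundant, was at 416, 609 and 570 CPM with asparagine and at 902, 1120 and 951 CPM without. Its ranges did not overlap either, and its log2 change was 0.90 ± 0.15 (edgeR adjusted p = 0.00055). The relatives of ADM2 and STC2 gave other values. ADM was at 30.8, 45.6 and 38.2 CPM with asparagine and at 27.2, 38.4 and 31.2 CPM without, a log2 difference of -0.24 ± 0.18 with a 95% interval of -0.62 to 0.13 (edgeR adjusted p = 0.58). STC1 was at 1.71, 3.28 and 2.84 CPM with asparagine and at 1.97, 3.16 and 3.16 CPM without. The groups of both genes overlapped, and for STC1 the interval of the log2 difference ran from -0.48 to 0.66 around 0.09 (edgeR adjusted p = 0.91).

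The list of integrated stress response genes moved in the same comparison: 19 of 20 rose and 0 fell, with a median log2 change of 1.5, beside 0.01 over all genes. ASNS, the enzyme that makes asparagine, rose by 2.52 ± 0.10, and TRIB3, a pseudokinase induced by ATF4, rose by 1.94. CEBPB, a transcription factor of the C/EBP family, differed by 0.23 ± 0.22 and did not pass. Among 19 other secreted factors tested, 6 rose and 1 fell. INHBE, a hepatokine of the TGF-beta family, had 2 to 4 reads per library with asparagine and 11 to 16 without, and FGF21, an endocrine fibroblast growth factor, had 0 to 3 and 10 to 24. IL1A, an inflammatory cytokine, rose by 1.60, and the fall was in CSF1, the macrophage growth factor, at -0.60. LGALS3, a secreted lectin, was at -0.01 ± 0.09 (edgeR adjusted p = 0.98).

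The hypoxia list, which holds the textbook companions of VEGFA and ADM under low oxygen, had 0 of 19 genes that rose and 2 that fell, with a median of -0.04. The genes that fell were PFKFB3, an enzyme that stimulates glycolysis (-0.49), and EGLN3, a prolyl hydroxylase that acts on hypoxia-inducible factors (-0.50). BNIP3, a mitophagy receptor, was at 0.00 ± 0.12. Of 18 p53 target genes, 4 rose and 0 fell, with a median of 0.14. BBC3, a promoter of apoptosis, rose by 1.55, TNFRSF10B, a death receptor, by 0.50 and DDB2, a DNA damage sensor, by 0.31, and the p53 regulator MDM2 was at 0.00 ± 0.12. Of 10 tested genes from the families of the 6 factors, 0 rose and 2 fell: BMP4 at -0.84 and INHBB at -0.46, both ligands of the TGF-beta superfamily. VEGFC, the lymphatic growth factor, was at 0.06 ± 0.12.

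**Figure D2:**
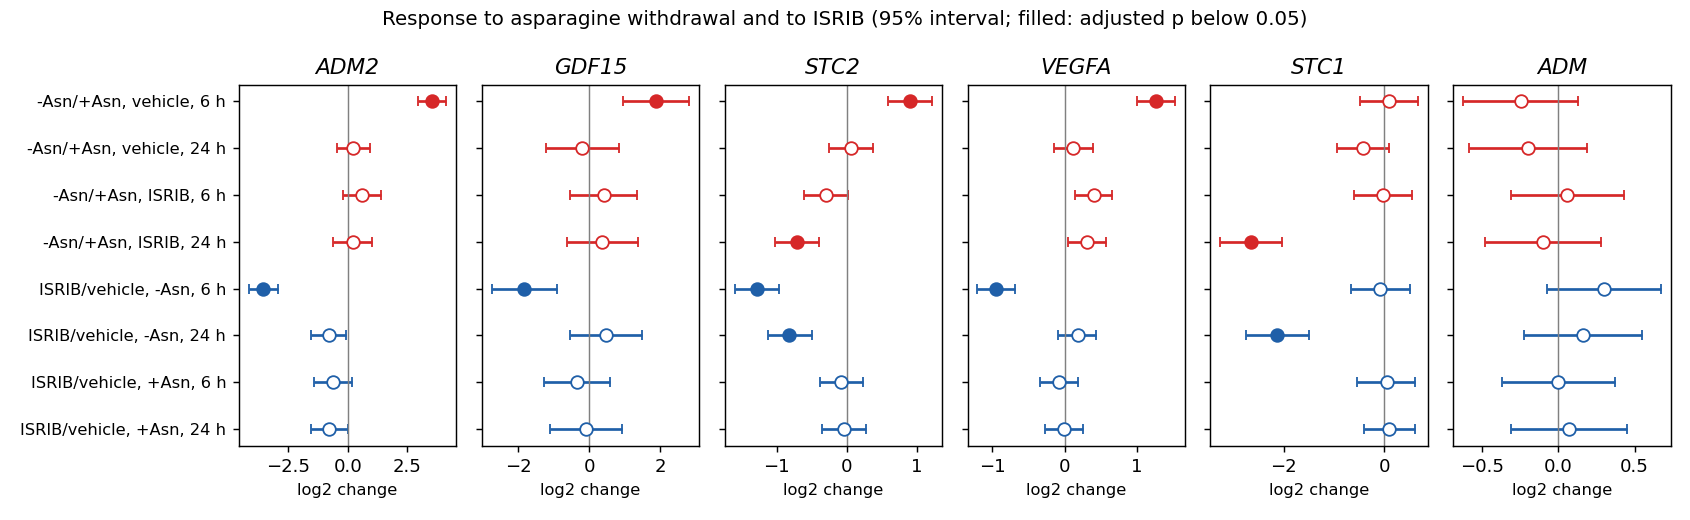
Log2 change with its 95% interval for each gene in the 4 withdrawal comparisons (red) and the 4 ISRIB comparisons (blue); filled points had an adjusted p below 0.05. Filled red points to the right at 6 h face filled blue points to the left for ADM2, GDF15, STC2 and VEGFA, and STC1 has filled points at 24 h.

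ISRIB against vehicle without asparagine at 6 h asked what blunting the stress response does to these levels. ADM2, GDF15, VEGFA and STC2 fell, 4 of the 6 beside 1.64% of all genes, and 0 of the 6 rose beside 0.551%. This comparison shares the vehicle libraries without asparagine with the one above, so the 2 sets of calls are not independent. ADM2 was at 1.06, 1.08 and 0.518 CPM with ISRIB, where the vehicle group had a mean of 10.6. No ISRIB library came near the vehicle range, the means differed 11.9-fold, and the log2 change was -3.54 ± 0.29 (edgeR adjusted p = 6.6e-08). GDF15 was at 12, 21.3 and 7.38 CPM with ISRIB, below all 3 vehicle libraries, and its log2 change was -1.82 ± 0.45 (edgeR adjusted p = 0.029). The call on GDF15 was lost without replicate 1 (edgeR adjusted p = 0.071) or 2 (0.2) of vehicle, without replicate 1 or 3 of ISRIB (both 0.12), and in a fit of these 2 groups alone (0.13). Of 11 alternatives other than leaving out a library, 10 called it, the replicate block among them. All 4 calls held without the 3 libraries of steepest GC slope.

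VEGFA was at 94.1, 110 and 93.1 CPM in ISRIB cells lacking asparagine at 6 h, below the vehicle range and above all 6 libraries with asparagine at 6 h. Its log2 change was -0.94 ± 0.13 (edgeR adjusted p = 4.5e-05). STC2 was at 351, 457 and 418 CPM with ISRIB, against 902 to 1120 CPM with vehicle. The groups did not overlap, and the change of STC2 was -1.28 ± 0.15 (edgeR adjusted p = 1e-05). ADM, at 38.0, 48.5 and 32.8 CPM, and STC1, at 1.75, 3.13 and 3.04 CPM, overlapped their vehicle ranges. Their log2 differences of 0.30 (95% interval -0.07 to 0.67) and -0.08 did not pass. In the stress response list 18 of 20 fell and 0 rose (median -1.57), with ASNS at -2.64, XBP1, a transcription factor of the unfolded protein response, at -1.83 and HERPUD1, a protein of ER-associated degradation, at -1.99. PPP1R15A, a phosphatase subunit that reverses eIF2 phosphorylation, was at 0.29 ± 0.23. Neither direction was called in the hypoxia list (0 of 19), which had a median of -0.06.

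With ISRIB in both media, withdrawal at 6 h left 0 of the 6 called in either direction, beside 1.63% of all genes that rose and 0.666% that fell. VEGFA had the smallest adjusted p of the 6: 59.7, 84.0 and 81.5 CPM with asparagine and 94.1, 110 and 93.1 CPM without. These ranges did not overlap, but the log2 difference of 0.40 ± 0.13 did not pass (edgeR adjusted p = 0.11). It passed with the GC correction (0.46, edgeR adjusted p = 0.0057), with the replicate block (0.41, 0.029) and with both (0.46, 5.8e-05). ADM2 was at 0.59 ± 0.39 on the log2 scale, GDF15 at 0.41 ± 0.45 and STC2 at -0.30 ± 0.15. The difference between the responses itself was tested as the interaction of medium and drug at 6 h, in which 3 of the 6 were called negative, beside 0.661% of all genes, and 0 positive, beside 0.0574%. The log2 response with ISRIB minus that with vehicle was -2.93 ± 0.50 for ADM2 (edgeR adjusted p = 0.0024). It was -1.20 ± 0.21 for STC2 (0.0035) and -0.86 ± 0.18 for VEGFA (0.016), so withdrawal changed all 3 less with ISRIB.

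For GDF15 the interaction at 6 h was -1.48 ± 0.63 and did not pass (edgeR adjusted p = 0.78), and its 95% interval, which is not adjusted for the number of genes, ran from -2.79 to -0.17. The difference did pass with the replicate block and the GC correction together (-1.65, edgeR adjusted p = 0.0012) and without a filter on low counts (-1.5, 8.9e-08). In the unfiltered fit edgeR gave every gene the shared spread, so that a quasi-dispersion of 0.825 stood in for the 8.1 of GDF15 itself. Whether GDF15 rose less with ISRIB than with vehicle thus depends on the fit. The call on VEGFA was lost in 5 of 24 fits that left out 1 library. These were replicate 1 of vehicle with asparagine (edgeR adjusted p = 0.073), replicates 2 (0.071) and 3 (0.063) of ISRIB with asparagine, replicate 2 of vehicle without asparagine (0.066) and replicate 1 of ISRIB without asparagine (0.056). In a fit of the 4 groups at 6 h alone, VEGFA (0.11) and STC2 (0.059) were not called, and ADM2 was.

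After 24 h without asparagine and with vehicle, 0 of the 6 were called. In that comparison 0.00574% of all genes rose and 0% fell, which is 1 gene: ASNS, at 57.1 ± 2.39 CPM against 27.2 ± 1.57 with asparagine (SD, n = 3). DESeq2 called 5 genes, edgeR with the replicate block and the GC correction 8, and edgeR without a filter on low counts 186 of 37411, none of them among the 6. At an unadjusted edgeR p below 0.05 there were 1271 of all genes and 0 of the 6. ADM2 was at 1.24, 1.20 and 1.06 CPM without asparagine and at 1.04, 1.27 and 0.654 CPM with it. VEGFA was at 54.5, 56.8 and 57.9 CPM without and at 45.1, 50.2 and 60.2 CPM with it. Both pairs of groups overlapped, as did those of the other 4 genes. The 95% interval of the log2 difference was -0.45 to 0.92 for ADM2 and -0.14 to 0.39 for VEGFA.

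The response to withdrawal with vehicle differed between 24 h and 6 h for 2 of the 6, both lower at 24 h, beside 1.03% of all genes, and 0 were higher, beside 0.195%. The log2 change at 24 h minus that at 6 h was -3.29 ± 0.45 for ADM2 (edgeR adjusted p = 0.00023) and -1.14 ± 0.18 for VEGFA (0.00081). STC2 at -0.84 (edgeR adjusted p = 0.055) and GDF15 at -2.08 (0.19) did not pass. The call on STC2 depended on the fit, with adjusted p from 2.6e-05 to 0.063 over 11 alternatives, of which 8 called it. For GDF15 the adjusted p ran from 2.1e-14 to 0.2 and 5 of 11 called it.

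ISRIB without asparagine at 24 h gave another pattern, in which the stanniocalcins fell. STC1 and STC2 were called, 2 of the 6 beside 11.6% of all genes that fell, and 0 of the 6 rose beside 10.1%. STC1 was at 3.13, 4.70 and 4.20 CPM with vehicle and at 0.958, 0.936 and 0.836 CPM with ISRIB. Its ISRIB libraries lay below every other library of the study. They held 24, 19 and 15 reads of STC1, so their coefficient of variation of 7.13% rests on few reads. The means differed 4.41-fold, and the log2 change of STC1 was -2.13 ± 0.30 (edgeR adjusted p = 4.8e-05). STC2 was at 179, 187 and 159 CPM with vehicle and at 104, 101 and 92.7 CPM with ISRIB. These 3 libraries were also the lowest of the 24, and the change was -0.82 ± 0.15 (edgeR adjusted p = 0.00072).

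ADM2 at 24 h without asparagine was at 1.24, 1.20 and 1.06 CPM with vehicle and at 0.878, 0.493 and 0.613 CPM with ISRIB. The ranges did not overlap, yet the log2 difference of -0.79 ± 0.35 did not pass (edgeR adjusted p = 0.11). Correction for GC content gave -1.16 (0.013), and over the 11 alternatives the adjusted p ran from 0.009 to 0.12. GDF15 at 0.48, VEGFA at 0.18 and ADM at 0.16 did not pass. VEGFA was at 61.5, 61.9 and 68.1 CPM with ISRIB, all above its 3 vehicle libraries, by a margin that did not pass.

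Set against ISRIB with asparagine at 24 h, the ISRIB libraries lacking asparagine again had lower STC1 and STC2, 2 of the 6 beside 12.2% of all genes that fell, and 0 of the 6 rose beside 9.97%. The 2 comparisons share the libraries with ISRIB and no asparagine. STC1 was at 5.15, 5.10 and 7.19 CPM with asparagine, its highest group, so the means differed 6.39-fold. Its log2 change of -2.65 ± 0.30 (edgeR adjusted p = 1.7e-06) ranked 8 from the lowest of 17409 genes. STC2 was at 157, 183 and 148 CPM with asparagine and fell by 0.71 ± 0.15 (edgeR adjusted p = 0.0019). The interaction of medium and drug at 24 h was called negative for these 2 of the 6, beside 5.59% of all genes, and positive for 0, beside 3.48%. It was -2.22 ± 0.39 for STC1 (edgeR adjusted p = 0.0013) and -0.77 ± 0.21 for STC2 (0.028). The STC2 interaction was lost without replicate 1 (edgeR adjusted p = 0.06) or 2 (0.051) of vehicle without asparagine, replicate 2 of ISRIB with asparagine (0.058), replicate 3 of vehicle with asparagine (0.077) or replicate 3 of ISRIB without asparagine (0.073).

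The difference between ISRIB and vehicle without asparagine was also compared between the 2 times. For 3 of the 6 it was higher at 24 h than at 6 h, beside 3.35% of all genes. It was lower for 1, beside 4.24%. This test shares its vehicle libraries with that of withdrawal with vehicle over time, so their calls are not independent. ADM2 differed by 2.75 ± 0.47 (edgeR adjusted p = 0.0011), VEGFA by 1.12 ± 0.18 (0.00053) and GDF15 by 2.30 ± 0.66 (0.037). STC1 went the other way, by -2.05 ± 0.41 (edgeR adjusted p = 0.0044), with a log2 difference of -0.08 at 6 h that did not pass and a fall at 24 h. The GDF15 call was lost in 9 of 24 fits that left out 1 library, all 9 from the groups without asparagine: replicates 1 and 2 of vehicle at 6 h, 1 and 3 of ISRIB at 6 h, 1 and 3 of vehicle at 24 h, and any of ISRIB at 24 h. Its adjusted p ran from 0.016 to 0.12 over all 24. STC2, which ISRIB lowered at both times, differed by 0.46 and did not pass (edgeR adjusted p = 0.17). From 6 h to 24 h without asparagine, ADM2 changed by -3.17 log2 with vehicle and by -0.42 with ISRIB. These changes were -1.75 and -0.63 for VEGFA, -3.27 and -0.98 for GDF15, and 0.53 and -1.52 for STC1.

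The lists around these genes at 24 h, for ISRIB against vehicle without asparagine, were read beside 10.1% of all genes that rose and 11.6% that fell. Of 20 stress response genes 3 rose and 9 fell (median -0.37), with ASNS at -1.67, SLC7A11, a cystine transporter, at -1.09 and PSAT1, a serine synthesis enzyme, at -0.87. DDIT3, of the same list, was higher with ISRIB, at 8.58 to 9.31 CPM against 5.61 to 6.32 CPM with vehicle. The median over all genes was 0.00. Of 19 hypoxia genes 0 rose and 8 fell (median -0.29), led by EGLN3 at -1.58, the glucose transporter SLC2A3 at -1.12 and PDK1, a kinase that restrains pyruvate oxidation, at -1. ENO2, a glycolytic enzyme, was at 0.00 ± 0.11. VEGFA and ADM, which belong to the same textbook response, did not pass in either direction. Of the family list, VEGFD (listed under its older symbol FIGF) fell by 0.99 and VEGFC, at -0.49, fell too, and 0 of 10 rose. Of 19 other secreted factors 2 rose and 1 fell: the cytokine IL11 rose by 0.67, and NAMPT, an enzyme of NAD synthesis that is also secreted, fell by 1.09. Of the p53 targets 2 rose and 2 fell, among them DDB2 (0.64), MDM2 (-0.56) and FAS (-0.86).

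The group in which STC1 was lowest also stood apart in 1 marker of another cell type. COL1A1, a fibroblast collagen, was at 9.16 to 13 CPM in ISRIB cells lacking asparagine at 24 h and at 3.58 to 7.68 CPM in the other 21 libraries. Summed over the 5 fibroblast markers the ranges were 9.26 to 13.2 CPM there and 4.49 to 6.92 CPM in the matched vehicle group, and the other 4 markers were near 0. The summed endothelial markers were lowest in the same group, at 3.96 to 5.12 CPM against 7.26 to 9.68 CPM with vehicle. The part of these markers in the falls of STC1 and STC2 was not tested.

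**Figure D3:**
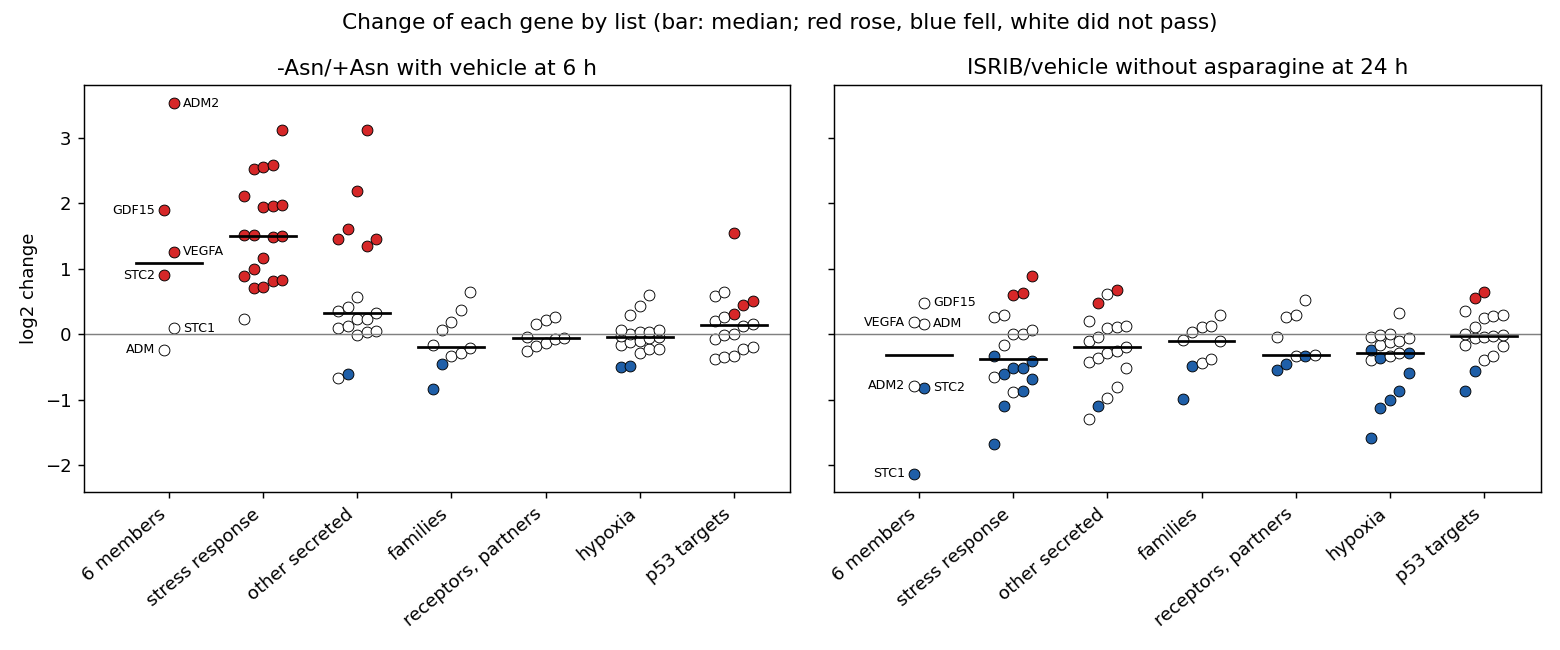
Log2 change of the 6 factors and of each gene in 6 lists for withdrawal with vehicle at 6 h (left) and for ISRIB without asparagine at 24 h (right); red points rose, blue points fell, white points did not pass, and bars are medians. At 6 h the stress response genes have a median of 1.5 and the hypoxia genes of -0.04, and at 24 h 8 hypoxia genes are blue.

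With asparagine present, ISRIB against vehicle gave 0 calls among the 6 and 0 among all genes (0%) in edgeR, at 6 h and at 24 h, and DESeq2 and limma on the deposited log2 values also called 0. Without a filter on low counts edgeR called 7 of 37411 genes at 6 h and 8 at 24 h, none of them among the 6. At an unadjusted edgeR p below 0.05 there were 203 genes at 6 h, none of them among the 6, and 248 at 24 h, 1 of them among the 6 (ADM2). ADM2 was at 0.746, 0.640 and 0.381 CPM with ISRIB at 6 h, below its 3 vehicle libraries, with a log2 difference of -0.61 ± 0.38. The nearest libraries of these groups, at 0.746 CPM with ISRIB and 0.756 CPM with vehicle, held 15 reads each. At 24 h ADM2 was at 0.813, 0.278 and 0.736 CPM with ISRIB, and the ranges overlapped. The 95% intervals of the log2 difference were narrow for VEGFA (-0.34 to 0.18 at 6 h, -0.27 to 0.25 at 24 h) and STC2 (-0.39 to 0.23 and -0.35 to 0.27). They were wide for GDF15, -1.28 to 0.6 at 6 h and -1.1 to 0.92 at 24 h, and both upper ends lay below its rise of 1.89 on withdrawal with vehicle at 6 h.

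Time after the change of medium moved most of these genes even with asparagine and vehicle. At 24 h against 6 h, 3 of the 6 fell, beside 9.47% of all genes, and 1 rose, beside 9.34%. STC2 went from 416, 609 and 570 CPM to 169, 182 and 151 CPM, with no overlap, and fell by 1.67 ± 0.15 log2 (edgeR adjusted p = 5.5e-07). ADM went from 30.8, 45.6 and 38.2 CPM to 23.1, 24.1 and 19.1 CPM and fell by 0.79 ± 0.18 (edgeR adjusted p = 0.0041). VEGFA fell by 0.62 ± 0.13 (edgeR adjusted p = 0.0016). STC1 moved against the others. It went from 1.71, 3.28 and 2.84 CPM to 4.38, 4.79 and 7.09 CPM and rose by 1.05 ± 0.26 (edgeR adjusted p = 0.0069), a call lost without replicate 3 at 24 h (0.81, adjusted p = 0.057). GDF15 at -1.19 ± 0.47 (edgeR adjusted p = 0.083) and ADM2 at 0.12 ± 0.35 did not pass.

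ISRIB with asparagine gave the same 4 calls over time, 3 of the 6 that fell beside 8.62% of all genes and 1 that rose beside 8.75%. The changes were -1.63 for STC2, -0.72 for ADM and -0.54 for VEGFA, and STC1 rose by 1.11 ± 0.26. The call on ADM was lost without replicate 3 of ISRIB at 6 h (edgeR adjusted p = 0.056), and in a fit of these 2 groups alone neither ADM (0.073) nor VEGFA (0.094) was called. STC1 was at 0.82 (edgeR adjusted p = 0.05) once the 3 libraries of most negative GC slope were left out. Without asparagine and with vehicle, 5 of the 6 fell, beside 13.2% of all genes, and 0 rose, beside 12.2%. The log2 changes were -3.27 for GDF15, -3.17 for ADM2, -2.50 for STC2, -1.75 for VEGFA and -0.74 for ADM. STC1, at 0.53 ± 0.26, did not pass (edgeR adjusted p = 0.15). Without asparagine and with ISRIB, 4 of the 6 fell, beside 17.8% of all genes, and 0 rose, beside 14.5%. The log2 changes were -2.04 for STC2, -1.52 for STC1, -0.88 for ADM and -0.63 for VEGFA, while GDF15 at -0.98 and ADM2 at -0.42 did not pass.

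STC2, VEGFA and ADM thus fell over time in all 4 conditions, while STC1 rose in the 2 with asparagine and fell in 1 without it. The other secreted factors moved widely over time too: 13 of 19 fell and 0 rose with asparagine and vehicle, with a median of -1.87. The growth factor TGFA was at -1.47 and the chemokine CXCL8 at -5.08. In the hypoxia list 5 of 19 rose and 1 fell, with a median of 0.24. Of the markers of other cell types, CDH5, an endothelial cadherin, moved in the same direction as STC2, from 23.1 to 55.3 CPM over all 6 h libraries to 2.45 to 8.26 CPM over all 24 h libraries. Summed over the 5 endothelial markers the ranges were 24.5 to 57.5 CPM at 6 h and 3.96 to 11.6 CPM at 24 h. PECAM1, at 0.739 to 5.66 CPM, did not follow CDH5. With asparagine its mean was higher at 24 h than at 6 h, with vehicle (4.52 against 1.46 CPM) and with ISRIB (4.34 against 1.41). Without asparagine it was higher at 24 h with vehicle (2.9 against 1.63 CPM) and lower with ISRIB (0.958 against 1.65). VWF, CLDN5 and TEK were near 0, and the part of CDH5 in these results was not tested.

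**Figure D4:**
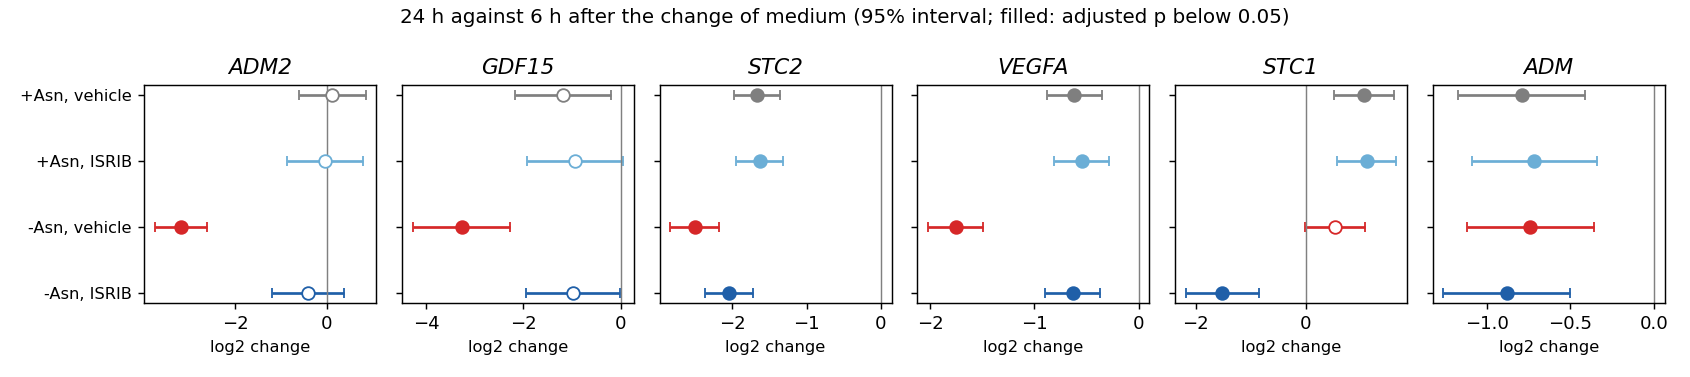
Log2 change at 24 h against 6 h with its 95% interval for each gene in the 4 conditions; filled points had an adjusted p below 0.05. STC2, VEGFA and ADM lie below 0 in all 4 conditions, whereas STC1 lies above 0 with asparagine and at -1.52 in the ISRIB libraries lacking it.

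Ordered by mean level, the 8 groups of ADM2 formed 1 high group at 10.6 ± 2.28 CPM and 7 between 0.589 and 1.17 CPM (SD, n = 3), in which each overlapped the next. GDF15 also had 1 high group, at 48.1 ± 21 CPM, above 7 groups from 13.6 down to 4.96 CPM in which each overlapped the next. Among these 7 the groups of 6 h were at 13.6 to 10.2 CPM and those of 24 h at 6.89 to 4.96 CPM. With asparagine and vehicle, the GDF15 ranges at 6 h and 24 h did not overlap. VEGFA stepped down without overlap from 190 ± 21.1 CPM in vehicle without asparagine at 6 h to 99.0 ± 9.33 CPM with ISRIB in the same medium. Its next group, vehicle with asparagine at 6 h, was at 79.5 ± 8.33 CPM, again without overlap. STC2 had 4 levels that did not overlap: 992 ± 116 CPM at the top, 3 groups of 6 h from 532 to 409 CPM, 3 of 24 h from 175 to 163 CPM, and 99.4 ± 5.94 CPM with ISRIB and no asparagine at 24 h. ADM had 2 levels, the 6 h groups from 39.8 to 32.3 CPM and the 24 h groups from 23.2 to 19.3 CPM. STC1 ran from 5.81 to 2.61 CPM in 7 groups that overlapped in sequence, with 0.910 ± 0.0649 CPM alone at the bottom. From the lowest to the highest group the means spanned 18-fold for ADM2, 9.99-fold for STC2, 9.71-fold for GDF15, 6.39-fold for STC1, 3.7-fold for VEGFA and 2.06-fold for ADM.

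To find the genes most alike in pattern, the 8 group means of log2 CPM, with 0.5 CPM added before the logarithm, were centred. The root mean square difference to each of 14756 other genes was then taken. Nearest to ADM2 were ASNS (0.35), the TNF-family cytokine TNFSF15 (0.38) and the ubiquitin ligase RNF144B (0.42). The lower groups of ADM2, at 0.589 to 1.17 CPM, were near the added 0.5 CPM, which narrows its profile, so these distances depend on that setting. Nearest to GDF15 were SESN2 (0.20), a stress-induced inhibitor of mTORC1, the transcription factor ATF3 (0.25) and TNFRSF9 (0.33), a receptor of the TNF family. VEGFA had KIAA1217 (0.11), GTPBP2 (0.12) and NAV2 (0.12). STC2 had the interleukin-33 receptor IL1RL1 (0.29), SERPINB8 (0.30) and AC008440.10 (0.32). STC1 had MAN1A1, a mannosidase (0.08), and SCD, a fatty acid desaturase (0.14). ADM varied too little between groups for a list of its own (SD 0.42 on the log2 scale). Among the 6, GDF15 and VEGFA were the closest pair (0.43), and STC1 and GDF15 (1.32) the farthest. The paired relatives were apart: 1.24 between STC1 and STC2 and 1.06 between ADM2 and ADM. These distances are over 8 group means that share libraries and scaling, and they are descriptions.

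Few receptors for these factors were detected in PC9. CALCRL, the receptor of ADM and ADM2, had at most 2 reads in a library, with RAMP2 at a median of 0.233 CPM and RAMP1 at 6.3 CPM, and CALCR and ACKR3 at 0.261 and 0.132 CPM. FLT1 had at most 3 reads and KDR at most 1, whereas the co-receptors NRP1 and NRP2 were at medians of 70.1 and 25.6 CPM. GFRAL had at most 1 read and RET at most 3. PAPPA was at 4.63 CPM and PAPPA2 had at most 1 read. The enzymes that finish peptide hormones were expressed, with PAM, which amidates adrenomedullins, at 43.8 CPM and FURIN, a proprotein convertase, at 120 CPM. RAMP3 was not analysed here. Of the 19 genes listed as receptors or partners 9 were tested, and edgeR called 0 on withdrawal with vehicle at 6 h or 24 h, or on withdrawal with ISRIB at 6 h. At an unadjusted p under 0.05 the counts were 1, 0 and 1. On withdrawal with ISRIB at 24 h 0 rose, beside 9.97% of all genes, and 2 fell, beside 12.2%. These were NRP2 at -0.60 (edgeR adjusted p = 0.0018) and PAM at -0.29. With ISRIB against vehicle without asparagine at 24 h 0 rose, beside 10.1% of all genes, and 3 fell, beside 11.6%. Those that fell were NRP2 at -0.46, PAM at -0.33 and PAPPA at -0.55, while NRP1 was at -0.04 ± 0.09.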

How the data were processed

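Gene counts of 24 PC9 libraries (8 groups of 3) were used. Per the submitters' processing notes the tools were Bowtie2, featureCounts and DESeq2 with hg38; their versions and roles and the strand setting were not stated in what was used here. The authors deposited counts per gene; a second deposited table of log2 values was the input of an alternative. The filter of edgeR 4.0.16 (R 4.3.3) left 17409 of 37411 genes and set aside 0.0751% to 0.098% of counts. With TMM scaling, a mean per group was fitted over all libraries (16 residual degrees of freedom, common dispersion 0.0176), and 16 contrasts went through edgeR's quasi-likelihood F test, adjusted by Benjamini-Hochberg per comparison at 0.05. P-values measure the spread between biological triplicates, as the labels call them. The procedure was tested on simulated data.

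The 6 genes, lists, comparisons and tests were chosen with earlier results of these data known. Named were all 6 genes and, for each with an SD of at least 0.5, the 3 genes most alike in pattern (mean of at least 1 CPM, pseudocount 0.5 CPM). Per list, up to 3 called genes of smallest adjusted p were named, and the least changed above 5 CPM. CSF1 and DDIT3 stand outside this rule and were named after their values were seen. Some genes that this rule names are not reported here. Of 37411 identifiers 36620 matched GENCODE 29. RPKM used exon length.

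Replicate numbers paired libraries by correlated deviations (all 3 pairs above 0.1) in 3 comparisons: vehicle withdrawal, with correlations of 0.304 to 0.339 at 6 h and of 0.187 to 0.35 at 24 h, and ISRIB without asparagine at 6 h, of 0.327 to 0.47. What the numbers mark is not in the labels. Alternatives were RLE and upper-quartile scaling, no filter, a filter of 5 CPM in 3 libraries, the replicate block, a correction for GC content (spline of 5 degrees of freedom, 99.5% of genes), both together, the compared groups alone, DESeq2 1.42.0, limma 3.58.1 on the authors' log2 table, and omission of each library in turn; leaving out the 3 libraries with the most negative GC slopes was added after seeing the data.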

Additional observations from a re-analysis of the deposited data

Results flagged for a closer look

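Of all tested, 11 differences between responses passed a test of the difference itself (edgeR, adjusted p below 0.05), on the log2 scale. The 6 genes were each tested in the interactions at 6 h and 24 h and in both differences between times. Of all genes, 0.0574% were called positive and 0.661% negative in the interaction at 6 h, and 3.48% and 5.59% at 24 h. Between times the shares were 0.195% and 1.03% for withdrawal with vehicle, and 3.35% and 4.24% for ISRIB without asparagine. All but the interaction at 24 h use the vehicle libraries without asparagine at 6 h, so these results are not independent.

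The response to withdrawal differed between ISRIB and vehicle. At 6 h the difference was -2.93 for ADM2, -1.2 for STC2 and -0.86 for VEGFA, and at 24 h it was -2.22 for STC1 and -0.77 for STC2. These 3 genes at 6 h had risen with vehicle; GDF15, which had too, did not pass this test (-1.48, edgeR adjusted p = 0.78), but passed without a filter on low counts (8.9e-08) and with the replicate block and the GC correction together (0.0012).

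The response to withdrawal with vehicle was smaller at 24 h than at 6 h, with a difference of -3.29 for ADM2 and -1.14 for VEGFA. The response to ISRIB without asparagine differed between 24 h and 6 h by 2.75 for ADM2, 2.3 for GDF15 and 1.12 for VEGFA, and by -2.05 for STC1, which ISRIB lowered at the later time.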

How the results depend on the processing

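Over 11 alternatives other than leaving out a library, 1011 of 1056 values of the 6 genes kept direction and call, 6 lost the call, 39 gained it and 0 called values turned sign; 30 values called in neither fit did. Leaving out each of 24 libraries kept 2270 of 2304, with 28 calls lost, 6 gained, 0 called values reversed and 60 uncalled sign changes.

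Of the 6, withdrawal with ISRIB at 6 h had 0 called, and 1 (VEGFA) with the replicate block, the GC correction or both together. Calls among all genes there numbered 400 of 17409, and 555, 1370 and 1721 in those fits in turn. The interaction at 6 h had 3, and 1 when only the groups compared were fitted. It had 4 (GDF15 added) without a filter or with the replicate block and the GC correction together. Calls among all genes there numbered 125, 72 of 16644 with the compared groups alone, 170 of 37411 without a filter and 379 with block and correction. Time with asparagine and ISRIB had 4, beside 3024 of all genes. It had 2 with the compared groups alone, beside 967 of 16322. The difference between times of withdrawal with vehicle had 2. It had 4 (STC2 and GDF15 added) without a filter, with the replicate block, the GC correction or both, and without the 3 libraries with the most negative GC slopes. Calls among all genes there numbered 213, and 268 of 37411, 269, 682, 941 and 492 of 17672 in those fits in turn. The interaction at 24 h had 2, and 1 to 2 with a library left out. Without a filter GDF15 gained 5 calls; that fit gave all genes 1 shared spread. The cause of the other changes was not tested.

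With the replicate block VEGFA was called on withdrawal with ISRIB at 6 h (0.41, edgeR adjusted p = 0.029) and 24 h (0.31, 0.031), GDF15 over time in the 2 groups with asparagine (-1.17, 0.011; -1.02, 0.03) and with ISRIB without it (-0.89, 0.032), and STC1 over time without asparagine and with vehicle (0.54, 0.034). The block changed no call in the 3 comparisons whose numbers paired the libraries. It did change calls in the difference between times of withdrawal with vehicle, which is built from the paired vehicle comparisons at 6 h and 24 h. There it added STC2 (-0.84, edgeR adjusted p = 0.011) and GDF15 (-2.12, 0.012). Of 24 libraries, 15 were most like their own number. Without TMM, mean CPM with ISRIB and no asparagine at 24 h was 106 for STC2 and 68.1 for VEGFA. ADM2 and STC1, with as few as 7 and 15 reads in a library, limit what small changes could be seen.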
